A study of Sus scrofa with 22 samples.

Results

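The epiblast of the pig embryo was followed from embryonic day 7 (E7) to embryonic day 10 (E10) in single-cell RNA-seq: 97 cells of the group Epiblast_E10 were set against 35 cells of Epiblast_E7, with 15 cells of Epiblast_E8 and 7 cells of Epiblast_E9 between them. The 2 end groups hold 132 of the 1647 cells of the series, and the 4 days together hold 154. The deposited files give the mean and the spread of each group but no list of its cells. The members were therefore found by fitting each deposited group mean as a least-squares mixture of all cells and keeping the cells whose weight passed 50% of the largest weight, and each cell fell into exactly 1 group. Counts were then summed per group and library, so that 1 sum is the unit of every test.

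All cells came from pre-implantation embryos, and their polyadenylated RNA was read by a modified Smart-seq2 protocol in which an 8-base barcode marks the cell. Neither breed, sex, genotype nor treatment is given in the labels, and day and cell type come only from the names of the deposited groups. Epiblast_E7 was made of 13 cells of library P8 and 22 of P9, Epiblast_E8 of 7 cells of P4 and 8 of P5, Epiblast_E9 of 7 cells of P17 alone, and Epiblast_E10 of 48 cells of P15 and 49 of P16. Hypoblast, the sister layer that lines the blastocyst cavity and forms yolk sac, is used as a comparison: Hypoblast_E7 has 38 cells of P8 and 35 of P9, and Hypoblast_E10 has 35 cells of P16, 22 of P5 and 33 of P6. Trophectoderm (TE), the outer layer that forms placenta, gives the background levels. No library holds epiblast of more than 1 day, so a difference between days and a difference between libraries cannot be told apart. The labels do not say whether libraries are separate embryos, and the p-values measure the spread between libraries, which may be technical.

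The epiblast gives rise to all tissues of the fetus. In the early blastocyst it is in a naive state, held by transcription factors such as KLF17, ESRRB and TFCP2L1. Before gastrulation it passes through a formative to a primed state, in which it becomes a polarised epithelial disc, loses the naive factors while keeping POU5F1 and SOX2, and answers to Nodal, FGF, WNT and BMP signals that later place the primitive streak. In the pig this takes place while the blastocyst has hatched but has not yet attached to the uterus, and the series also holds pluripotent lines derived from E10 epiblast, which were not used here.

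Depth differed between the days. The sums at E7 held 3028534 counts in P8 and 4674802 in P9, those at E8 1537260 and 2206293, the one at E9 4304202, and those at E10 32512409 in P15 and 24819458 in P16. The median cell had 185006 counts at E7 and 600400 at E10. In the same order the median share of counts from the mitochondrial genome was 3.52% and 4.22% per cell at E7, 3.20% and 2.42% at E8, 1.58% at E9, and 1.65% and 1.80% at E10. The comparisons of E10 with E7, in epiblast and hypoblast, were therefore run again on the cells of 250000 to 450000 counts, which leaves 11 cells at E7 and 16 at E10 (the depth-matched cells). All 96 barcodes occur in more than 1 library, and 47 barcodes of epiblast cells were used by epiblast cells of more than 1 library. In such sums, fewer cells of a type and less RNA per cell cannot be told apart.

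The markers bore out the name epiblast on all days. Of 10 epiblast markers 9 could be identified, none was at 0 in any epiblast sum, and together they reached 1978 and 1804 CPM (counts scaled to a common library size, with edgeR's TMM factors) at E7 and 1262 and 1451 at E10, against 370 and 618 in Hypoblast_E7 and 195 and 302 in TE_E7. At E8 they reached 1315 and 1347 CPM, and at E9 1121. The inner cell mass group ICM_E6 held 454 and 956 CPM of them. The 20 hypoblast markers summed to 2260 and 2180 CPM at E7, 2501 and 2868 at E8, 1439 at E9, and 633 and 1105 at E10, against 6973 to 8345 in Hypoblast_E7. The same list reached 2407 and 2574 CPM in TE_E7, above both E7 epiblast sums. Of these 20, CER1 was at 0 in P8 and TTR, AFP and CER1 in P9 at E7, and AFP in P15 at E10. Most of the E7 sum came from APOA1 (1363 and 1389 CPM) and APOE (451 and 322 CPM), apolipoprotein genes, while FOXA2, a defining endoderm factor, stood at 3.89 and 5.40 CPM at E7 and 0.027 and 0.681 at E10. Both E10 sums of the list lay below both E7 sums. The 16 trophectoderm markers identified summed to 1145 and 1494 CPM at E7 and 1457 and 1252 at E10, with overlap, against 6266 and 7045 in TE_E7. Of these markers, TFAP2C and IFNG fell from E7 to E10 in the edgeR test given below (log2 change -4.98 and -7.20, adjusted p = 0.00189 and 0.0137). IFNG was at 0.0877 in the depth-matched cells. Of 8 maternal blood markers 6 were identified, and they reached 144 and 101 CPM at E7 and 169 and 133 at E10. Counts of LYZ ran with those of CPSF6 (correlation 0.9561 over cells) and those of HBB with an unnamed gene (0.9597). These sums can therefore not be read as blood RNA alone. The 3 endometrium markers identified, of 7, reached 0 and 0.257 CPM at E7 and 3.89 and 8.28 at E10. The part of hypoblast and other RNA in the results was not tested.

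From E7 to E10, 788 of 23045 genes (3.42%) passed an adjusted p of 0.05 (quasi-likelihood F test of edgeR, p-values adjusted over all genes by Benjamini and Hochberg). Of these, 388 (1.68%) were higher at E10 and 400 (1.74%) lower. The depth-matched cells gave 493 calls of 21981 genes (2.24%), 250 higher (1.14%) and 243 lower (1.11%), and 361 of them were also among the 788. Where limma was run on the mean CPM per cell, the split moved to 1501 higher and 430 lower, and with at least 10 cells per sum it was 855 higher and 557 lower. Over all genes the median log2 change was 0.22, and in the depth-matched cells 0.00. The 2 E7 sums and the 2 E10 sums did not overlap for 12833 genes (55.7%), so a lack of overlap carries little by itself here. Calls depended on single libraries: 169 genes passed without P15, 205 without P16, 223 without P8 and 287 without P9.

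Some genes of naive pluripotency fell from E7 to E10. Of 13 naive genes tested, 5 fell (KLF17, KLF2, ESRRB, TFAP2C and TBX3), where 1.74% of all genes fell, and none rose. The median log2 change of the 13 was -3.21, against 0.22 over all genes, and -4.14 in the depth-matched cells, where 5 of 12 fell. The list was chosen with earlier results of these data known, so these shares are no separate support. KLF17, a zinc-finger factor of the early epiblast (chromosome 6, 167176834 to 167188418, Sscrofa11.1), held 147 and 129 CPM in P8 and P9 at E7, 9.29 and 27.2 at E8, 6.01 at E9, and 1.10 and 1.81 in P15 and P16 at E10. KLF2, of the same family (chromosome 2, 61270733 to 61273037), stood at 98.8 and 145 CPM at E7, 13.9 and 3.69 at E8, 2.69 at E9, and 1.42 and 2.04 at E10. ESRRB, a nuclear receptor of naive cells, was at 41.2 and 54.0 CPM at E7, 5.97 and 1.38 at E8, 0.415 at E9, and 0.466 and 0.416 at E10. In each of the 3 genes both E7 sums were far above both E10 sums, and the E8 sums lay between them. No naive gene passed in a single step between days (for E8 against E7 the adjusted p was 0.369 for KLF17, 0.16 for KLF2 and 0.183 for ESRRB; edgeR gave 4, 2 and 1 of 13 genes at an unadjusted p under 0.05 in the 3 steps), and the timing of the genes was not compared by a test. The log2 change was -6.56 ± 1.62 (SE) for KLF17 (adjusted p = 0.0144), -6.12 ± 1.40 for KLF2 (adjusted p = 0.00791) and -6.70 ± 1.42 for ESRRB (adjusted p = 0.00375), that is 97.6-, 75.2- and 110-fold lower.

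TFAP2C and TBX3 were the other naive genes that fell. TFAP2C, a factor shared by naive epiblast, trophectoderm and germ cells, had 82.9 and 95.7 CPM at E7, 32.5 and 116 at E8, 1.86 at E9, and 1.83 and 3.82 at E10. TBX3, a T-box factor (chromosome 14, 37582704 to 37596767), had 24.9 and 38.3 CPM at E7, 34.5 and 29.5 at E8, 8.71 at E9, and 1.45 and 3.48 at E10. TFAP2C was under its E7 level in P4 and above it in P5 at E8, while TBX3 at E8 was within the range of E7, and E9 and E10 lay below all of them. The log2 change from E7 to E10 was -4.98 ± 0.97 for TFAP2C (adjusted p = 0.00189) and -3.68 ± 0.61 for TBX3 (adjusted p = 0.000279). NR5A2, a nuclear receptor, stood at 87.2 and 82.3 CPM at E7 and 2.0 and 4.5 at E10 without passing (adjusted p = 0.0705); FGF4, a growth factor of the inner cell mass, stood at 54.5 and 76.7 CPM at E7 and 8.82 and 5.33 at E10 (adjusted p = 0.291). KLF4 and KLF5 overlapped between the days. Of the 5, TBX3 alone passed without P15 (0.0899 for TFAP2C, 0.2 for KLF17, and 0.105 for KLF2 and ESRRB), and without P16 TBX3 and TFAP2C passed (0.145 for KLF17, 0.114 for KLF2, 0.0838 for ESRRB). Without P8, KLF17 missed the threshold with 0.0595; over all 18 alternatives TBX3 ranged from 9.21e-09 to 0.0378 and KLF17 from 9.42e-09 to 0.2.

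Most core factors gave no call. Of 11 core pluripotency genes tested, 1 fell, where 1.74% of all genes fell, and none rose. Their median log2 change was 0.30. POU5F1, the POU factor at the centre of the network (chromosome 7, 23564654 to 23570691), held 472 and 425 CPM at E7, 382 and 317 at E8, 307 at E9, and 286 and 341 at E10. SOX2, its partner, held 125 and 163 CPM at E7, 98.2 and 180 at E8, 144 at E9, and 191 and 176 at E10. The E7 sums of POU5F1 lay above both E10 sums, and those of SOX2 below them, but neither gene passed the test: the log2 change was -0.52 ± 0.57 for POU5F1 (adjusted p = 0.697) and 0.35 for SOX2 (adjusted p = 0.922). NANOG, the third of the core trio, had 291 and 259 CPM at E7, 45.1 and 78.3 at E8, 22.4 at E9, and 52.8 and 67.5 at E10. Its E7 sums lay above all later sums, yet the change of -2.19 ± 1.03 did not pass (adjusted p = 0.251, and 0.263 in the depth-matched cells, where it was -2.43).

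DPPA2, a chromatin factor of early embryos, was the core gene that fell (chromosome 13, 150186833 to 150200612). It held 776 and 752 CPM at E7, 241 and 225 at E8, 151 at E9, and 61.1 and 59.5 at E10, so that every later day lay below the one before. The log2 change was -3.66 ± 0.92 (adjusted p = 0.016, 12.6-fold lower); it missed the threshold without P15 (0.18), P16 (0.168), P8 (0.0864) or P9 (0.0515), with a range of 1.47e-09 to 0.18 over the alternatives. DPPA4, its paralog and partner, stood at 185 and 107 CPM at E7, 115 and 121 at E8, 15.1 at E9, and 16.8 and 31.5 at E10; it did not pass between the ends (adjusted p = 0.125) and passed only as a trend over the 4 days (adjusted p = 0.0367). LIN28B, an RNA-binding protein that blocks let-7, stood at 52.5 and 5.15 CPM at E7 and 146 and 138 at E10 (adjusted p = 0.166).

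**Figure D1:**
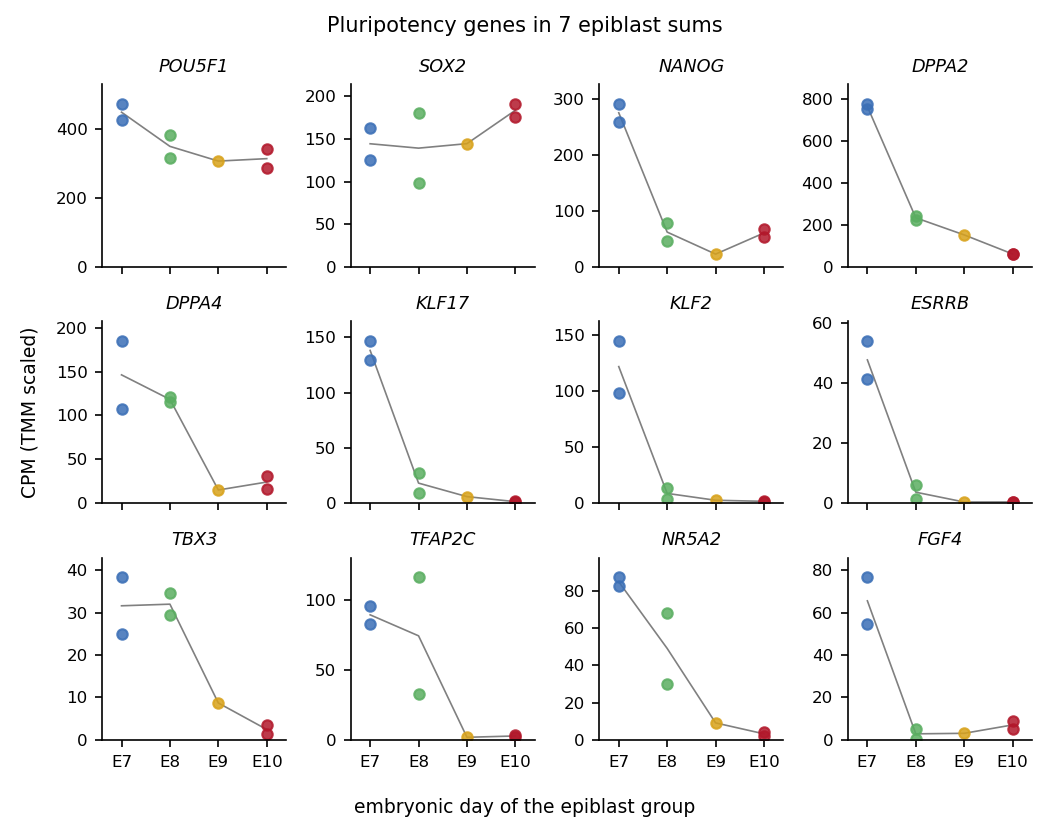
Level in CPM (TMM-scaled, linear axes that differ between genes) of 12 pluripotency genes by embryonic day; each point is 1 sum of the epiblast cells of 1 library, with 2 sums at E7, E8 and E10 and 1 at E9, and the grey line joins the means of the days. KLF17, KLF2 and ESRRB lie at 41.2 to 147 CPM at E7, at 1.38 to 27.2 at E8 and at 0.416 to 2.04 at E10, the 2 E8 points of TFAP2C lie apart, at 32.5 and 116 CPM, and POU5F1 and SOX2 stay between 98.2 and 472 CPM on all days.

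The share of cells with a count was also taken. To compare unequal depths, each cell was thinned to 30000 counts, which left out 1 shallower E10 cell. KLF2 was then counted in 27 of 35 cells (77.1%) at E7 and in 7 of 96 (7.29%) at E10, against 5.46% of 110 TE cells of E6 to E8, whose median depth was 302697 counts. The E10 share was thus close to the background of TE cells. NANOG was counted in 33 of 35 cells (94.3%) at E7 and in 75 of 96 (78.1%) at E10, against 5.46% of TE cells. Without thinning, the shares were 88.6% and 25.8% for KLF2 and 94.3% and 96.9% for NANOG. E10 cells are deeper than E7 cells, and the part of depth in these shares was not tested. POU5F1 had a count in every thinned cell at both ends. The deposited spread between cells (SD of the authors' log2 values) of POU5F1 was 0.564 at E7 and 0.280 at E10, and that of KLF2 1.57 and 0.538; 1 value per group leaves no test of this.

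Among 17 genes of the formative and primed state, 1 rose, where 1.68% of all genes rose, and none fell. Their median log2 change was 2.19, and in the depth-matched cells edgeR called none of 16 (median 1.89). A single call says little about a list of this size. The gene that rose was ETV5, a transcription factor switched on by FGF and ERK signalling (chromosome 13, 123873346 to 123930292). It had 1.56 and 3.60 CPM at E7, 45.1 and 127 at E8, 45.2 at E9, and 55.7 and 61.6 at E10, and both E7 sums lay below all others. The log2 change was 4.46 ± 1.22 (adjusted p = 0.0295), and 3.62 with an adjusted p of 0.129 in the depth-matched cells; without P15, P16, P8 or P9 the adjusted p was 0.0692, 0.102, 0.27 and 0.125. ETV4, of the same family, stood at 12.1 and 3.35 CPM at E7 and 75.2 and 52.3 at E10 (adjusted p = 0.146), and FGFR1, an FGF receptor, at 4.28 and 2.06 CPM at E7 and 27.5 and 34.0 at E10 (adjusted p = 0.0979). SFRP2, a secreted WNT binder of primed cells, stood at 3.11 and 1.54 CPM at E7 and 39.5 and 49.2 at E10 (adjusted p = 0.163). OTX2, a homeobox factor of the primed state, had 79.8 and 176 CPM at E7 and 134 and 183 at E10, with overlap.

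Nodal signalling genes included the ligand itself. Of 18 Nodal and activin genes tested, 2 rose, where 1.68% of all genes rose, and none fell. Their median log2 change was 1.13 (0.56 in the depth-matched cells). NODAL, the TGF-beta ligand that maintains the primed epiblast and later induces the streak (chromosome 14, 73350358 to 73357064, where it overlaps EIF4EBP2), had 0.389 and 3.60 CPM at E7, 178 and 26.7 at E8, 245 at E9, and 141 and 129 at E10. SMAD7, an inhibitory SMAD induced by the pathway (chromosome 1, 98512800 to 98543924), had 0.389 and 1.29 CPM at E7, 22.6 and 24.4 at E8, 46.2 at E9, and 30.4 and 36.3 at E10. Both genes were near 0 at E7 and above it in every later sum. The log2 change was 5.98 ± 1.35 for NODAL (adjusted p = 0.00719, 58.6-fold higher) and 5.21 ± 1.25 for SMAD7 (adjusted p = 0.0113, 35.4-fold), and both passed in the depth-matched cells. NODAL missed the threshold without P8 (0.162), and SMAD7 without P16 (0.0524), P8 (0.187) or P9 (0.0941). Reads of NODAL were counted almost equally for an unnamed gene, with a correlation of 0.9945 over cells, so the 2 cannot be told apart. FST, a secreted activin inhibitor, stood at 115 and 82.8 CPM at E7 and 302 and 331 at E10 (adjusted p = 0.193).

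After thinning, NODAL was counted in 1 of 35 cells (2.86%) at E7 and in 89 of 96 (92.7%) at E10, against 0.909% of TE cells. NODAL counts also occurred in other cells of the same library. In P15, which held 18 cells of TE_E6 beside the epiblast cells, 88.9% of those TE cells had a NODAL count before thinning, against 1.75% of the 57 TE_E6 cells in P14, and none of the 18 had one after thinning. The TE_E6 sum of P15 held 6.42 CPM of NODAL, well under the 141 CPM of the epiblast cells of that library.

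A few WNT and BMP genes passed. Among 25 WNT genes 2 rose and 1 fell (median log2 change 0.87), where 1.68% of all genes rose and 1.74% fell. Among 23 BMP genes 2 rose (median 1.41, and 0.59 in the depth-matched cells, where 1 rose). WNT5B, a ligand, had 1.56 and 0.257 CPM at E7 and 20.6 and 15.6 at E10 (log2 change 4.42 ± 1.09, adjusted p = 0.0144, and 0.097 in the depth-matched cells). TCF7, a nuclear effector, had 0 and 0.772 CPM at E7 and 14.2 and 11.8 at E10 (adjusted p = 0.0357); only 3 counts were seen at E7, so its ratio of 28.3 has a counting interval of 9.67 to 138. RSPO3, a secreted WNT enhancer that is also a hypoblast marker (chromosome 1, 35985985 to 36066432), went the other way, with 45.1 and 37.3 CPM at E7, 27.9 and 18 at E8, 5.6 at E9, and 0.110 and 2.99 at E10. Each later day of RSPO3 lay below the day before, and the log2 change was -4.74 ± 0.84 (adjusted p = 0.000544, 30.7-fold lower, and at most 0.0276 in all 18 alternatives). CTNNB1, the pathway's transducer, stood at 58.8 and 99.6 CPM at E7 and 196 and 209 at E10 and passed only as a trend (adjusted p = 0.0384); its reads are shared with ULK4. Without P15, P8 or P9, WNT5B missed the threshold (0.0699, 0.0657 and 0.226), and TCF7 missed it without P15, P16, P8 or P9 (0.0937 to 0.283).

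ID3, a helix-loop-helix inhibitor induced by BMP (chromosome 6, 81422541 to 81424169), had 24.1 and 14.2 CPM at E7, 157 and 219 at E8, 14.5 at E9, and 198 and 332 at E10. The single E9 sum lay within the range of the E7 sums, while E8 and E10 lay above it. From E7 to E10 the log2 change was 3.80 ± 0.80 (adjusted p = 0.00358, 14-fold), and 0.0768 without P9. ID4, of the same family, had 1.17 and 0.515 CPM at E7 and 15.3 and 27.2 at E10 (adjusted p = 0.0295); this was 0.0674 in the depth-matched cells, and 0.0789, 0.145, 0.139 and 0.227 without P15, P16, P8 and P9. In the LIF and JAK-STAT list, 1 of 17 genes fell, where 1.74% of all genes fell. PIAS1, a SUMO ligase that restrains STAT proteins, had 180 and 161 CPM at E7 and 39.2 and 44.7 at E10 (log2 change -2.02 ± 0.43, adjusted p = 0.00352, and 0.105 and 0.0633 without P15 and P16).

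**Figure D2:**
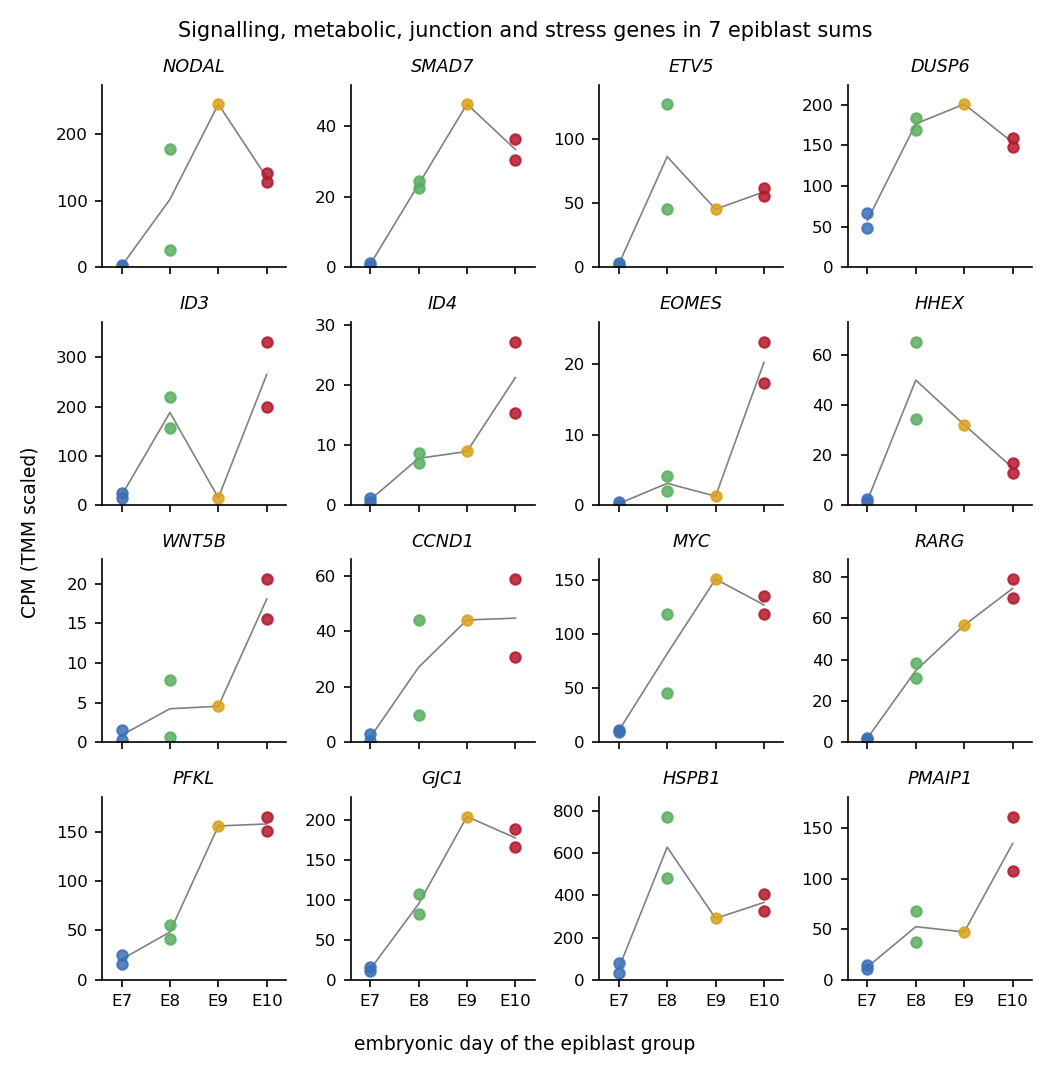
Level in CPM (TMM-scaled, linear axes that differ between genes) of 16 signalling, metabolic, junction and stress genes by embryonic day, 1 point per sum of epiblast cells of 1 library, with a grey line through the means of the days. NODAL, SMAD7 and ETV5 lie between 0.389 and 3.60 CPM at E7 and at 22.6 CPM or more from E8 on, while ID3 at E9 (14.5 CPM) falls back into the range of E7.

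EOMES was the one gene of the primitive streak and mesoderm list that rose, 1 of 15, while PDGFRA fell. Over all genes 1.68% rose and 1.74% fell. EOMES, a T-box factor of the streak and of definitive endoderm (chromosome 13, 14209590 to 14216184), had 0.389 and 0 CPM at E7, 1.99 and 4.15 at E8, 1.24 at E9, and 23.2 and 17.3 at E10. Only the E10 sums stood clearly above 0. With 1 count at E7, its ratio of 134 has a counting interval of 24 to 5290, and the log2 change was 6.83 ± 1.91 (adjusted p = 0.0335). In the depth-matched cells the adjusted p was 0.249, and without P15, P16, P8 or P9 it was 0.121, 0.0787, 0.168 and 0.237. After thinning, EOMES was counted in 30 of 96 E10 cells (31.2%), 16 of 47 in P15 and 14 of 49 in P16, in 2 of 15 cells at E8, in none of 35 at E7 and in none of 110 TE cells. TBXT and MIXL1, which mark the streak itself, were at 0 in every epiblast sum, apart from 0.027 CPM of TBXT in P15.

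Some markers of the inner cell mass and of hypoblast fell in the epiblast cells, where 1.74% of all genes fell. Of 10 inner cell mass markers 5 fell and none rose (median log2 change -2.10), of 20 hypoblast markers 3 fell, none rose and 17 did not pass (median -1.45), and of 10 definitive endoderm genes 1 fell and 1 rose. These lists share members and are not separate support. KLF17 and TBX3, counted above as naive genes, are also inner cell mass markers, and GATA6 and PDGFRA are in both marker lists. The lists were chosen with earlier results of these data known. GATA6, which drives the hypoblast, had 37.0 and 28.6 CPM at E7, 25.2 and 25.3 at E8, 13.7 at E9, and 1.37 and 3.21 at E10. PDGFRA, a receptor of early hypoblast, had 16 and 23.7 CPM at E7 and 3.04 and 3.86 at E10. SPIC, an ETS factor, had 294 and 331 CPM at E7, 31.2 and 74.2 at E8, 7.67 at E9, and 5.12 and 6.24 at E10. All 3 were higher in both E7 sums than in both E10 sums. The log2 changes were -3.83 ± 0.71 for GATA6 (adjusted p = 0.00121), -2.52 ± 0.67 for PDGFRA (adjusted p = 0.0244) and -5.78 ± 1.13 for SPIC (adjusted p = 0.00189). Without P15 the adjusted p was 0.0789 for GATA6, 0.218 for PDGFRA and 0.0859 for SPIC; PDGFRA also missed the threshold without P16 (0.156), P8 (0.0791) or P9 (0.169), and SPIC without P16 (0.0545). HHEX, an endoderm homeobox gene, rose from 2.33 and 1.29 CPM at E7 to 12.9 and 16.8 at E10, after 34.5 and 65.4 at E8 (adjusted p = 0.0308, and 0.0896 to 0.292 without P15, P16, P8 or P9). The summed hypoblast markers given above, which include GATA6 and PDGFRA, were 2180 to 2260 CPM at E7 and 633 to 1105 at E10. At E8 that sum was 2501 and 2868 CPM, when SPIC had already fallen, and at E9 it was 1439 CPM. A link between these genes and that sum was not tested.

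Some genes of epithelial polarity and junctions rose. Of 27 tested 5 rose, where 1.68% of all genes rose, and the median log2 change was 0.55. In the depth-matched cells 2 rose. Falls in this list are not reported here, so no direction is given for the list as a whole. CLDN10, a tight-junction claudin (chromosome 11, 65027706 to 65145002), had 2.72 and 0.515 CPM at E7, 24.6 and 18.9 at E8, 28.2 at E9, and 66.7 and 60.4 at E10. GJC1, a connexin of gap junctions (chromosome 12, 18526060 to 18560221), had 10.5 and 15.7 CPM at E7, 107 and 82.5 at E8, 204 at E9, and 166 and 188 at E10. Both genes were lower in each E7 sum than in every later sum. The log2 changes were 5.38 ± 1.15 for CLDN10 (adjusted p = 0.00416, at most 0.0399 in all 18 alternatives) and 3.75 ± 0.86 for GJC1 (adjusted p = 0.00817, 0.133 without P8). CLDN3, PALS1 and GRHL2 also rose, with adjusted p of 0.016, 0.0438 and 0.036, and none of the 3 passed in the depth-matched cells. Each of the 3 was lost without P15 or P9 as well (0.114 and 0.182 for CLDN3, 0.161 and 0.131 for PALS1, 0.182 and 0.285 for GRHL2), CLDN3 and PALS1 without P8 (0.148 and 0.283), GRHL2 and PALS1 without P16 (0.0771 and 0.232), and PALS1 without P4 (0.0635) or P5 (0.0823). CDH1, the epithelial cadherin, stood at 313 and 345 CPM at E7 and 276 and 333 at E10, with overlap. Among 12 genes of epithelial to mesenchymal transition edgeR called 0, with 3 at an unadjusted p under 0.05, while DESeq2 called 0 and limma 1. Among 23 genes of matrix and integrins edgeR called 0, with 5 at an unadjusted p under 0.05, while DESeq2 called 2 (1 higher and 1 lower) and limma 1.

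Among 26 cell cycle genes 2 rose and 1 fell, where 1.68% of all genes rose and 1.74% fell. Their median log2 change was 0.19 (-0.03 in the depth-matched cells). PBK, a mitotic kinase (chromosome 14, 11543657 to 11577286), had 494 and 523 CPM at E7, 63.1 and 65.9 at E8, 39.2 at E9, and 34.7 and 28.0 at E10. Both E7 sums lay far above all later sums, and the log2 change of -4.02 ± 0.44 had the smallest adjusted p of the listed genes (1.51e-07, at most 0.0006 in all 18 alternatives). CCND1, cyclin D1 of the G1 phase, had 0.389 and 3.09 CPM at E7, 9.96 and 44.2 at E8, 44.1 at E9, and 58.9 and 30.7 at E10. MYC, a growth factor-driven transcription factor, had 9.73 and 11.8 CPM at E7, 118 and 45.6 at E8, 151 at E9, and 135 and 119 at E10. Both were lower in each E7 sum than in each later sum. The log2 change was 4.58 ± 1.13 for CCND1 (adjusted p = 0.0146, and 0.112, 0.217 and 0.0574 without P15, P8 and P9) and 3.55 ± 0.99 for MYC (adjusted p = 0.033, and 0.119, 0.102, 0.268, 0.219 and 0.0515 without P15, P16, P8, P9 and P5).

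Genes of mitochondrial respiration were lower at E10. Oxidative phosphorylation genes of the nucleus fell in 11 of 24 cases and none rose (median log2 change -1.09), where 1.74% of all genes fell. Of 13 genes of the mitochondrial genome 12 fell (median -1.54). NDUFA1, a complex I subunit, had 784 and 854 CPM at E7, 652 and 655 at E8, 252 at E9, and 234 and 289 at E10 (log2 change -1.65 ± 0.37, adjusted p = 0.0073). ND3, a mitochondrially encoded complex I subunit, showed a log2 change of -1.92 ± 0.36 (adjusted p = 0.0015, 3.93-fold lower). These genes moved with depth: in E7 cells of up to 100000 counts the mitochondrial share was 5.92%, and in those of 300000 to 400000 counts it was 3.10%. In the depth-matched cells the share was 3.10% at E7 and 1.99% at E10, the median changes were -0.49 and -0.69, and 1 gene of each list, NDUFA1 and ND3, still fell (adjusted p = 0.0449 and 0.0351). Without P15 none of either list passed, without P16 there were 2 and 1, without P8 3 and 5, and without P9 5 and 6; NDUFA1 was at 0.151 without P15 and 0.0637 without P16, and ND3 at 0.0692 without P15.

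**Figure D3:**
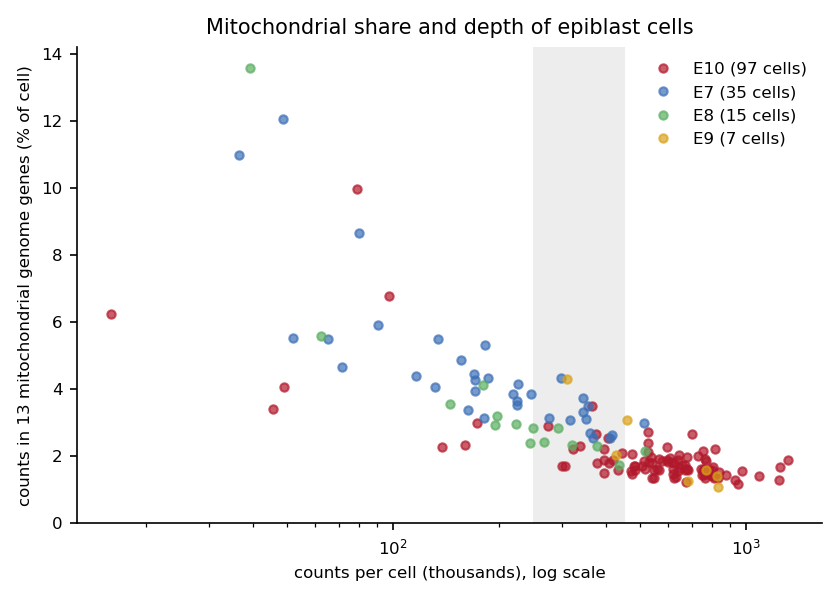
Share of counts from 13 genes of the mitochondrial genome (percent) against counts per cell (log axis) for each epiblast cell, coloured by day; the grey band marks 250000 to 450000 counts. The share falls with depth within days, and inside the band the E7 cells have a median of 3.10% and the E10 cells of 1.99%.

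Of 25 glycolysis and hypoxia genes 2 rose, where 1.68% of all genes rose, and the median of the list was 0.48. PFKL, a phosphofructokinase subunit, had 16.3 and 25.2 CPM at E7, 41.2 and 55.7 at E8, 156 at E9, and 165 and 150 at E10, and each sum at E8 or later lay above both E7 sums (log2 change 2.92 ± 0.75, adjusted p = 0.0184, 7.33-fold). ENO2, an enolase, was at 0 in both E7 sums and at 7.45 and 13.5 CPM at E10, at least 21.5-fold higher against a floor of 3 counts over the E7 group (adjusted p = 0.0427, and 0.116 in the depth-matched cells). Without P15, P16, P8 or P9 the adjusted p was 0.0971, 0.0725, 0.214 and 0.115 for PFKL and 0.0989, 0.145, 0.242 and 0.236 for ENO2, which also missed the threshold without P4 (0.0568) or P5 (0.0583). In the lipid list of 22 genes, ACACA, the enzyme that commits acetyl-CoA to fatty acid synthesis, rose from 2.72 and 3.35 CPM to 36.4 and 37.5 (log2 change 3.59 ± 0.75, adjusted p = 0.00331, and 0.0781 and 0.0659 without P8 and P9). FABP3, a fatty acid carrier whose reads are shared with ZCCHC17, fell from 977 and 1053 CPM to 292 and 380 (adjusted p = 0.0069, 0.164 without P15 and 0.279 in the depth-matched cells).

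Stress, retinoid and amino acid genes gave a few calls. Over all genes 1.68% rose and 1.74% fell, so a lone call says little about a list. In the p53 and stress list 3 of 21 rose (median 0.46): PMAIP1, a p53-induced death gene, went from 10.9 and 14.7 CPM at E7 through 37.2 and 68.2 at E8 and 47.5 at E9 to 108 and 162 at E10 (log2 change 3.39 ± 0.74, adjusted p = 0.00483). HSPA5, a chaperone of the endoplasmic reticulum, and HSPB1, a small heat shock protein, rose too, with log2 changes of 1.49 and 2.74 (adjusted p = 0.0221 and 0.0387). PMAIP1 missed the threshold without P16 (0.056) or P8 (0.105), HSPA5 without P16, P8 or P9 (0.207, 0.27 and 0.0521), and HSPB1 without P15, P16, P5, P8 or P9 (0.0524 to 0.346). RARG, a retinoic acid receptor, was the 1 of 20 genes of its list that rose, from 2.33 and 1.80 CPM at E7 to 69.8 and 78.9 at E10 (log2 change 5.17 ± 1.20, adjusted p = 0.00868, and 0.108 and 0.137 without P8 and P9). SLC7A5, a leucine transporter, was the 1 of 22 amino acid genes that rose (adjusted p = 0.0463), with 0.778 and 18.3 CPM at E7 and 79.7 and 61.6 at E10; it missed the threshold without P15, P16, P4, P5 or P8 (0.0647 to 0.415). HELLS, a chromatin remodeler needed for DNA methylation, fell as 1 of 13 genes of DNA methylation, with 1004 and 972 CPM at E7 and 292 and 410 at E10 (adjusted p = 0.023); this was 0.548 in the depth-matched cells and 0.304, 0.1 and 0.113 without P15, P16 and P8. DNMT3B, a de novo methyltransferase, stood at 719 and 727 CPM at E7 and 387 and 477 at E10 (adjusted p = 0.655). In 4 lists edgeR called 0 genes: 19 of chromatin and PRC2 (2 at an unadjusted p under 0.05), 17 imprinted (6), 14 of neural ectoderm (2) and 15 of RNA binding (4). In the same order DESeq2 called 2, 4, 1 and 1, and limma 0, 2, 1 and 1.

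Beyond the lists, the 15 genes with the largest rise among those of at least 50 CPM were near 0 at E7. A choice by the size of the change favours such genes, so this is a description. VRTN, a DNA-binding protein tied to vertebral number in pigs (chromosome 7, 97614707 to 97624273), was at 0 in P8 and P9 at E7, at 38.5 and 4.15 CPM at E8, 50.6 at E9, and 85.3 and 68.4 at E10. THBS3, a matrix thrombospondin, was at 0 at E7, 7.96 and 4.15 CPM at E8, 58.5 at E9, and 65.4 and 76.0 at E10. DNER, a Notch-related transmembrane protein, was at 0 at E7, 23.2 and 42.8 CPM at E8, 49.1 at E9, and 52.9 and 61.8 at E10. With 0 counts at E7 these are lower bounds: VRTN was at least 168-fold higher, THBS3 at least 150-fold, DNER at least 122-fold and HS3ST1, a heparan sulfate sulfotransferase, at least 110-fold. Their adjusted p were 0.00549, 0.00551, 0.00647 and 0.0319. HHIP, a cell-surface inhibitor of Hedgehog ligands (chromosome 8, 83583735 to 83678368), had 0 and 0.515 CPM at E7, 49.8 and 108 at E8, 63.2 at E9, and 159 and 167 at E10. It passed with a log2 change of 9.0 ± 1.78 (adjusted p = 0.00203), and its ratio of 524 has a counting interval of 145 to 4330. After thinning, HHIP was counted in none of 35 E7 cells, in 95 of 96 E10 cells and in 1.82% of TE cells. Without P8 and without P9 the adjusted p was 0.0871 and 0.0791 for VRTN, 0.0847 and 0.0809 for THBS3, and 0.0937 and 0.102 for DNER. HHIP was at 0.0766 without P8, and HS3ST1 at 0.0627 to 0.216 without P15, P16, P8 or P9.

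CYBA, a subunit of the NADPH oxidase (chromosome 6, 1015212 to 1021422), and its neighbour IL17C, a cytokine (1023330 to 1025173), gave nearly the same counts, with a correlation of 0.9966 over cells, and are 1 signal here. CYBA had 0.778 and 0 CPM at E7, 40.5 and 41.0 at E8, 200 at E9, and 267 and 292 at E10 (log2 change 9.69 ± 2.0, adjusted p = 0.00309). P3H4 (chromosome 12, 20881807 to 20891482) and its neighbour FKBP10 (20872155 to 20881604) both act in collagen folding. P3H4 had 0.778 and 0.257 CPM at E7 and 112 and 84.8 at E10 (adjusted p = 0.0024), and FKBP10 1.56 and 0 CPM at E7, 25.2 and 32.2 at E8, 128 at E9, and 147 and 98.6 at E10 (adjusted p = 0.000877). NREP had 0.778 and 0.257 CPM at E7, 85.6 and 47.4 at E8, 164 at E9, and 179 and 202 at E10 (adjusted p = 0.00177). MGP, an inhibitor of calcification, was higher at E8 and E9 than at E10, with 84.3 and 126 CPM at E8, 127 at E9, and 47.9 and 64.0 at E10 (adjusted p = 0.0107). The remaining 4 were CERS1, a ceramide synthase, CORO1A, an actin-binding coronin, CHGA, a granin of secretory vesicles, and NSG1, an endosomal protein, with adjusted p between 0.00203 and 0.00762. Of these 15 genes, with CYBA and IL17C counted as 2, 14 passed without P15 and 14 without P16, 6 without P8 and 4 without P9. FKBP10 and NSG1 passed in every alternative, with at most 0.0288 and 0.0483. IL17C did so too (at most 0.0283), but CYBA, the same signal, did not. Without P9, CYBA was at 0.0652, P3H4 and NREP at 0.0564 and MGP at 0.163, and without P8 MGP was at 0.0823. In the depth-matched cells 14 passed, and MGP was at 0.0598. The TE_E6 cells of P15 held 20.7 CPM of CYBA, 8.10 of HHIP and 4.47 of VRTN, where TE_E7 in P8 and P9 held between 0 and 0.940 CPM of these 3. Day and library both differ between these TE cells and cannot be told apart, and the source of the counts was not tested.

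The 15 genes with the largest fall were high in E7 epiblast, as the choice by at least 50 CPM in the higher group fixes. LZTS1, a leucine zipper protein (chromosome 14, 4344496 to 4404208), had 211 and 291 CPM at E7, 5.97 and 18 at E8, 1.24 at E9, and 2.25 and 0.113 at E10. After thinning it was counted in 34 of 35 cells at E7 and in 3 of 96 at E10, against 6.36% of TE cells. The log2 change was -7.70 ± 1.30 (adjusted p = 0.000359, 192-fold lower, at most 0.0297 in all 18 alternatives). SYCP1, which joins homologous chromosomes in meiosis, had 180 and 214 CPM at E7, 24.6 and 56.2 at E8, 4.56 at E9, and 2.19 and 2.46 at E10 (log2 change -6.40 ± 1.39, adjusted p = 0.00544). APOC3, a lipoprotein component, had 267 and 458 CPM at E7, 231 and 153 at E8, 68.0 at E9, and 0.192 and 7.15 at E10 (log2 change -6.64 ± 1.42, adjusted p = 0.0044). APOC3 was higher still in Hypoblast_E7 (749 and 1222 CPM) and was present in TE_E7 (198 and 354 CPM). TM4SF4, a tetraspanin-like membrane protein, had 241 and 298 CPM at E7 and 0.664 and 2.76 at E8, and stayed low, with 6.46 and 3.86 at E10 (adjusted p = 0.0303). HBE1, embryonic epsilon-globin (chromosome 9, 4818206 to 4820243), had 8.17 CPM in P8 and 238 in P9 at E7 and was at 0 at E10, at least 3080-fold lower against a floor of 3 counts (adjusted p = 0.0204). The 2 E7 libraries differ strongly for this gene, and in P8 a single cell gave 66.7% of its counts. Without P15 the adjusted p was 0.119 for SYCP1, 0.124 for APOC3, 0.21 for TM4SF4 and 0.189 for HBE1. Without P16 it was 0.1 for SYCP1, 0.271 for TM4SF4 and 0.171 for HBE1, and without P9 it was 0.0907 for TM4SF4 and 0.161 for HBE1; TM4SF4 without P8 was at 0.108.

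The other 10 were RASSF9, CYP4B1, KLF17, SGIP1, KLF2, CMKLR2, a chemerin receptor, CASP10, a caspase, SPIC, BCL2L14 and CFD, complement factor D. CFD was nearest to the threshold (adjusted p = 0.0495). CYP4B1, a cytochrome P450, had 175 and 130 CPM in the epiblast at E7 and 0.329 and 1.55 at E10, but 111 CPM in the TE_E6 cells of P15; its adjusted p was 0.0899 without P15. CFD missed the threshold without any 1 of the 7 libraries (0.0502 to 0.309). Of the 15 genes 1 passed without P15, 3 without P16, 9 without P8 and 10 without P9, and LZTS1 was the one that did so in every alternative. In the depth-matched cells 12 passed, and HBE1, SYCP1 and CASP10 were at 0.0779, 0.0623 and 0.108. All 30 genes of both directions kept their direction there. These cells are part of those that chose the genes for large changes, so this is no separate support.

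**Figure D4:**
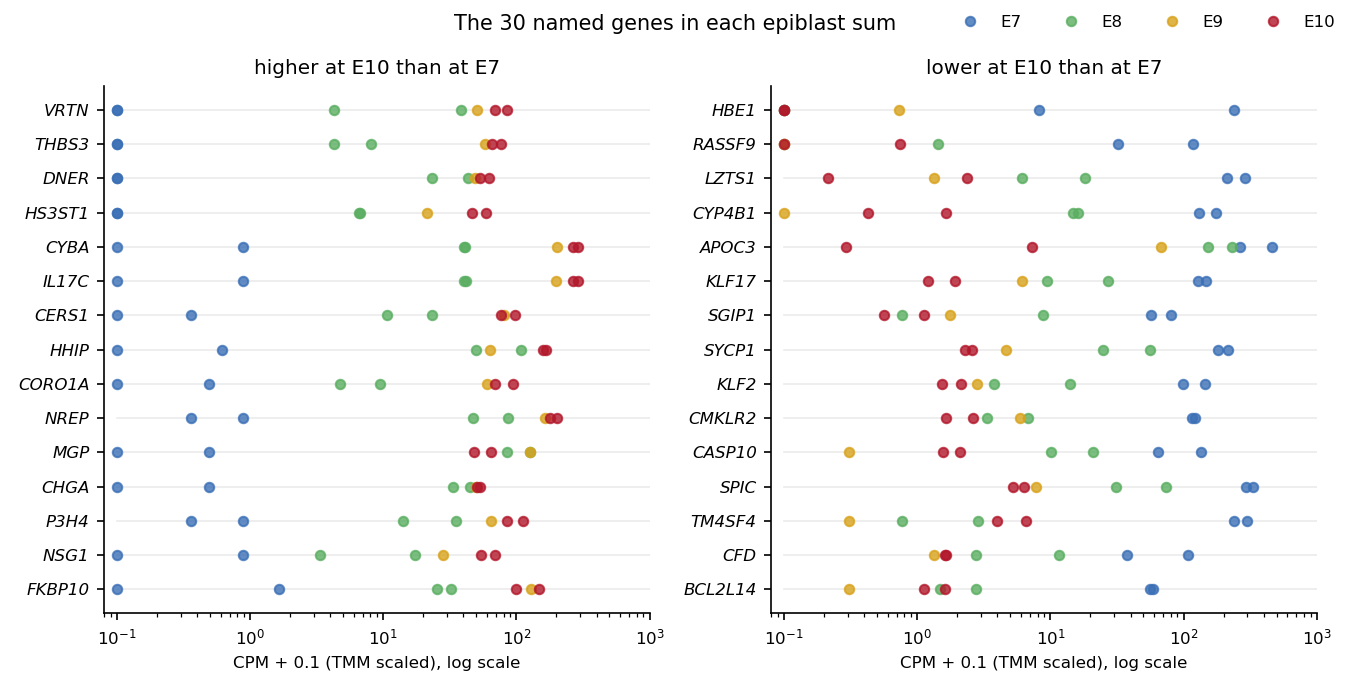
Level in CPM (TMM-scaled, plus 0.1, log axis) of the 15 genes with the largest rise and the 15 with the largest fall from E7 to E10, 1 point per sum of epiblast cells of 1 library, coloured by day. By the rule that chose the 30 genes, both E7 points lie on one side of both E10 points, and HBE1 shows the widest gap between the E7 libraries (8.17 and 238 CPM).

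E8 and E9 placed the changes within the interval. As a linear trend over the 4 days, edgeR called 1024 genes (4.44%), 478 higher (2.07%) and 546 lower (2.37%). Taken step by step, 139 genes (0.603%) passed from E7 to E8, 101 higher (0.438%) and 38 lower (0.165%), and 1 gene (0.00434%) from E8 to E9, which was lower. From E9 to E10 edgeR called 0 genes (0%), with 793 at an unadjusted p under 0.05, while DESeq2 called 49 and limma on the mean CPM per cell 167. The E9 steps rest on 1 sum of 7 cells, and the steps share sums. Of the 388 genes that rose from E7 to E10, the E8 mean lay between the ends for 335 and the E9 sum for 272, and the median gene had made 73.0% of its change on the log2(CPM + 1) scale by E8 and 90.1% by E9. Of the 400 that fell, 366 lay between the ends at E8 and 232 at E9, and the median gene had made 50.1% of its change by E8 and 99.2% by E9. A strict order of all 4 days was seen in 165 of the 388 and 162 of the 400. Because E7 and E10 chose these genes, the counts are a description. As a trend, CYBA, CYP4B1, IL17C, LZTS1, NREP, PLAC8 and THBS3 passed in each of 16 alternatives, with CYBA and IL17C being 1 signal. PLAC8 had 92.2 and 39.4 CPM at E7, 3.98 and 0.461 at E8, 0 at E9, and 2.66 and 1.02 at E10 (adjusted p of the trend = 0.000255). NUPR1, a stress-induced nuclear protein, had 68.9 and 123 CPM at E7, 3.32 and 66.8 at E8, 0 at E9, and 3.01 and 4.95 at E10 (adjusted p of the trend = 0.00298, and 0.0755 without P15).

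Whether a change belonged to the epiblast or to both inner lineages was asked by testing the difference of the E7 to E10 change between epiblast and hypoblast. In hypoblast 232 genes (1.01%) passed from E7 to E10, 140 higher (0.608%) and 92 lower (0.399%); this became 49 (8 higher, 41 lower) without P9, 69 (22, 47) without P8, 88 (46, 42) without P5, 119 (73, 46) without P16 and 830 (554, 276) with DESeq2. The difference of the changes passed for 62 genes (0.269%), 23 more upward in epiblast (0.0998%) and 39 more downward (0.169%). With library as a block, which P8, P9 and P16 allow since each holds both lineages, 137 genes passed, 38 more upward and 99 more downward. That fit used only the epiblast, hypoblast and trophectoderm sums of E7 to E10. On the same sums without a block, 286 passed, 108 more upward and 178 more downward. In the block fit P15 held Epiblast_E10 alone, so the E10 epiblast side rested on P16. MYOF, a membrane-repair ferlin (chromosome 14, 104770514 to 104941212), gave the smallest adjusted p. It had 204 and 221 CPM in E7 epiblast, 52.4 and 96.3 at E8, 29.0 at E9, and 6.30 and 17.5 at E10, while hypoblast had 105 and 95.8 CPM at E7 and 155, 119 and 161 at E10. MYOF fell in epiblast (adjusted p = 1.26e-06) and did not pass in hypoblast (adjusted p = 0.629), and the difference was -4.69 ± 0.65 on the log2 scale (adjusted p = 8.7e-05, and 0.0711 without P9). REC8, a meiotic cohesin subunit (chromosome 7, 75118743 to 75127759), had 1.56 and 1.54 CPM in E7 epiblast and 130 and 117 at E10, while hypoblast had 9.10 and 7.07 at E7 and 14, 5.08 and 5.51 at E10 (difference 6.28 ± 1.29, adjusted p = 0.0144). USP44, a deubiquitinase of the mitotic checkpoint (chromosome 5, 87864410 to 87890913, where it overlaps METAP2), had 10.9 and 18 CPM in E7 epiblast, 204 and 211 at E8, 207 at E9, and 201 and 242 at E10, while hypoblast had 13 and 20.5 at E7 and 28.8, 12.9 and 17.1 at E10. Its level was reached at E8 and held (difference 3.69 ± 0.85, adjusted p = 0.0367). Without P15, P8 or P9, REC8 was at 0.0929, 0.387 and 0.134 and USP44 at 0.145, 0.444 and 0.281; REC8 without P5 was at 0.055, and USP44 without P16 or P5 at 0.104 and 0.144.

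OTX2 passed the same test mainly through hypoblast: it had 79.8 and 176 CPM in epiblast at E7 and 134 and 183 at E10, but 279 and 332 CPM in hypoblast at E7 and 13.7, 22.3 and 4.72 at E10 (difference 4.81 ± 0.87, adjusted p = 0.00565). TBX3 and PBK fell more in epiblast than in hypoblast (differences -3.23 and -2.89, adjusted p = 0.0479 and 0.0101). Without P8 and without P9 all 3 missed the threshold, at 0.353 and 0.0912 for OTX2 and PBK and 0.466 and 0.467 for TBX3. Without P16 they were at 0.0513 for OTX2 and 0.0989 for TBX3 and PBK, and without P15 at 0.459 for TBX3 and 0.0929 for PBK. TBX3 was also lost without P4 (0.0833) or P5 (0.0908) and with library as a block (0.059). For most of the genes named above the difference was not past the threshold. HHIP rose in hypoblast too, from 0.297 and 0.120 CPM to 23.9, 26.6 and 40.6 (difference 1.96 ± 2.59, adjusted p = 1), and SYCP1 fell there from 55.8 and 113 CPM to 0, 0.199 and 0.112 (difference 3.08 ± 1.63, adjusted p = 0.632). KLF2 stood at 12.8 and 27.2 CPM in E7 hypoblast and 18.8, 47.3 and 59.8 at E10, and its difference of -7.20 ± 1.73 lay just outside the threshold (adjusted p = 0.0519). For NODAL, at 0.198 and 0.240 CPM in E7 hypoblast and 4.05 to 9.66 at E10, the difference was 1.15 ± 2.06 (adjusted p = 1).

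**Figure D5:**
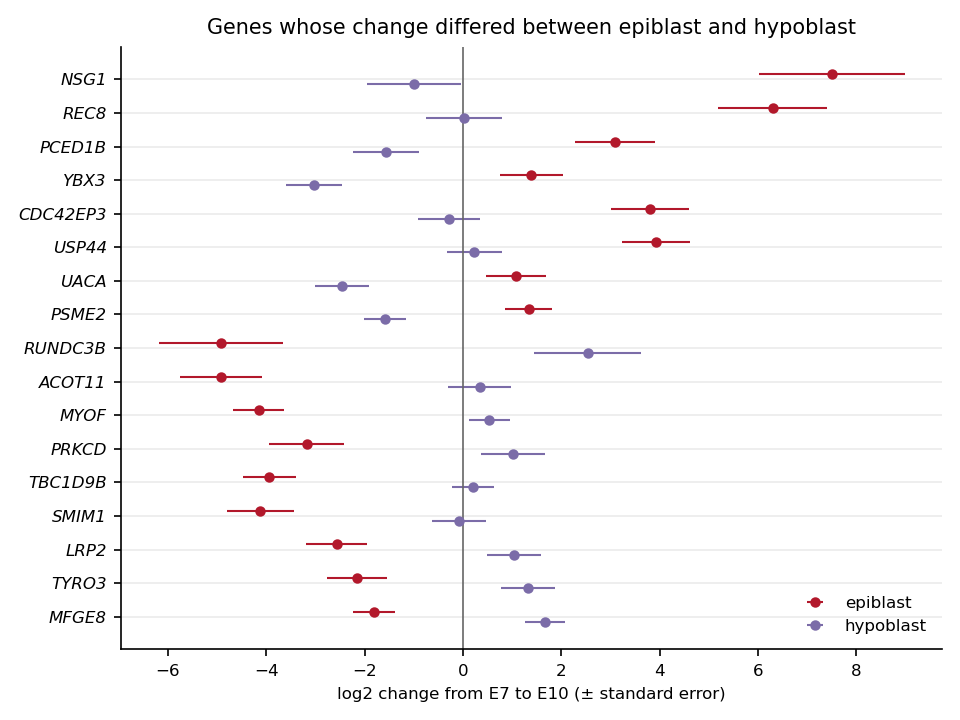
Log2 change from E7 to E10 (± SE) in epiblast (2 sums against 2) and in hypoblast (3 sums against 2) for 17 genes named by size among those whose change differed between the lineages; red points are epiblast, purple points hypoblast. The 2 points lie apart for each gene, as the choice fixes; for MYOF the change is -4.16 in epiblast and 0.54 in hypoblast.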

How the data were processed

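The deposited table of raw counts per gene and cell was made by the authors with STAR 2.7.1a, featureCounts 1.6.4 and UMI-tools on Sscrofa11.1, per the submitters' processing notes; cell filters and strandedness are not given in the sources used here. The deposited group means are on the log2 scale, recomputed from the counts as the mean of log2(CPM/10 + 1) over cells, and the other deposited table holds the SD of those values. At least 93.0% of the means and 99.8% of the SDs recomputed from the recovered cells lay within 0.001 of the deposited ones. Counts were summed per group and library, with at least 5 cells per sum for the groups described, and spike-ins were left out. One edgeR 4.0.16 quasi-likelihood model (R 4.3.3, filterByExpr, TMM, trended dispersion) was fitted to 65 sums of 36 groups, so that all groups share the estimate of the spread, with Benjamini-Hochberg adjustment over 23045 genes and a threshold of 0.05. The script was tested on simulated data. Standard errors were derived from the F statistic, as the size of the log2 change over the root of F. A fold is the ratio of pooled counts over TMM-scaled library sizes, with a floor of 3 counts over the group and exact 95% counting intervals, which cover counting error only.

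Genes named beyond the lists are the 15 per direction (10 for the trend and the lineage difference) with the largest change among those past the threshold, at 50 CPM or more in the higher group, without overlap between E7 and E10, with a symbol, and neither ribosomal nor mitochondrial. The members and the 33 lists (553 genes, 505 identified) were chosen with earlier results of these data known. Coordinates are those of RefSeq on Sscrofa11.1. Alternatives were DESeq2 1.42.0, limma 3.58.1 on log2(mean CPM + 1), other size factors, filters, cells and samples, each library left out, and the depth-matched cells, which were added after seeing the data. With 2 sums against 2, an exact two-sided permutation test of 1 value cannot go below 0.333 and was not used. Doublets were not called. Results that need items withheld from this work are not reported here.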

Additional observations from a re-analysis of the deposited data

Results flagged for a closer look

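For 17 genes the change from E7 to E10 differed between epiblast and hypoblast by a test of the difference itself (edgeR interaction, Benjamini-Hochberg over all genes; epiblast minus hypoblast, log2 ± SE). In 8 genes the epiblast change was the more upward: NSG1 8.5 ± 1.75, REC8 6.28 ± 1.29, PCED1B 4.66 ± 1.05, YBX3 4.43 ± 0.86, CDC42EP3 4.09 ± 0.98, USP44 3.69 ± 0.85, UACA 3.54 ± 0.82 and PSME2 2.92 ± 0.64. YBX3, a cold-shock domain protein, fell in hypoblast (adjusted p = 0.00206) and did not pass in epiblast (adjusted p = 0.234), with 27.2 and 30.6 CPM in E7 epiblast and 74.5 and 77.6 at E10, against 182 and 200 CPM in E7 hypoblast and 7.37 to 50 at E10. PCED1B reads are shared with an unnamed gene. In 9 genes it was the more downward: RUNDC3B -7.47 ± 1.66, ACOT11, a thioesterase, -5.26 ± 1.03, MYOF -4.69 ± 0.65, PRKCD -4.19 ± 1.00, TBC1D9B -4.14 ± 0.68, SMIM1 -4.03 ± 0.86, LRP2, the endocytic receptor megalin, -3.61 ± 0.83, TYRO3, a receptor kinase, -3.47 ± 0.83, and MFGE8, a milk-fat globule protein, -3.47 ± 0.59.

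MFGE8 went in opposite directions, from 100 and 88.3 CPM in E7 epiblast to 29.5 and 24.2 at E10, and from 50.2 and 46.6 CPM in E7 hypoblast to 111, 179 and 170 at E10. For PRKCD 1 cell gave 83.8% of the counts of P8. ACOT11 reads are shared with FAM151A. These calls rest on few libraries: of the 17 genes 1 passed without P15, 5 without P16, 1 without P8 and none without P9, where MYOF was at 0.0711. With library as a block, 13 of the 17 passed.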

How the results depend on the processing

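No gene followed here changed sign under an alternative, but the balance of higher and lower calls turned in several (given as higher, lower). From E7 to E10, 788 genes (388 higher, 400 lower) became 1904 (1056, 848) with DESeq2, 854 (398, 456) with DESeq2 size factors, 1392 (662, 730) with no filter, 516 (266, 250) without trended dispersion, 1931 (1501, 430) with limma on mean CPM, 2918 (1366, 1552) with epiblast sums only, 1701 (860, 841) with epiblast, hypoblast and trophectoderm sums of E7 to E10, 1412 (855, 557) with at least 10 cells per sum, 1105 (517, 588) with cells of at least 6000 genes, 768 (358, 410) without mitochondrial genes, 493 (250, 243) in the depth-matched cells, and 169 to 765 (62 to 375, 39 to 400) with 1 library left out. The trend, 1024 (478, 546), became 2259 (1134, 1125) with DESeq2, 1091 (468, 623) with its size factors, 1545 (662, 883) with no filter, 725 (379, 346) without trended dispersion, 2412 (1898, 514) with limma, 3181 (1532, 1649) with epiblast only, 2043 (997, 1046) with the 3 lineages, 1366 (610, 756) with 6000 genes, 1033 (449, 584) without mitochondrial genes, and 265 to 873 (98 to 387, 87 to 487) with 1 library left out.

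The step from E7 to E8, 139 (101, 38), became 865 (613, 252) with DESeq2, 143 (116, 27) with its size factors, 611 (432, 179) with no filter, 13 (10, 3) without trended dispersion, 752 (546, 206) with limma, 1700 (869, 831) with epiblast only, 672 (413, 259) with the 3 lineages, 252 (164, 88) with 6000 genes, 139 (96, 43) without mitochondrial genes, and 3 to 155 (1 to 119, 1 to 36) with 1 library left out. The step from E8 to E9, 1 (0, 1), became 145 (23, 122) with DESeq2, 110 (11, 99) with no filter, 352 (290, 62) with limma, 305 (76, 229) with epiblast only, 27 (5, 22) with the 3 lineages, 3 (1, 2) with 6000 genes, and 1 to 2 (0, 1 to 2) with 1 library left out. The step from E9 to E10, 0 with edgeR (793 at an unadjusted p under 0.05), became 49 (39, 10) with DESeq2, 59 (23, 36) with no filter, 167 (35, 132) with limma, 9 (3, 6) with epiblast only, 13 (5, 8) with the 3 lineages, and 0 with 1 library left out.

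The lineage difference, 62 (23, 39), became 272 (113, 159) with DESeq2, 53 (20, 33) with its size factors, 359 (136, 223) with no filter, 23 (5, 18) without trended dispersion, 214 (151, 63) with limma, 286 (108, 178) with the 3 lineages, 126 (67, 59) with at least 10 cells, 74 (28, 46) with 6000 genes, 54 (20, 34) without mitochondrial genes, 69 (15, 54) in the depth-matched cells, 0 to 60 (0 to 22, 0 to 38) with 1 library left out, and 137 (38, 99) with the replicate block. The cause of these differences was not tested. The replicate block was fitted to the sums of the 3 lineages only, so its 137 stands against the 286 there. No paired analysis was possible for E10 against E7 because no library holds epiblast of both days. Without P17 the E9 steps gave no value, at least 10 cells per sum and the depth-matched cells gave no trend or step, and epiblast sums alone gave no lineage difference. Of 90 genes called that are named or in a list, 8 passed in every alternative that tested them.

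Depth limits E8 most: 3 counts over the group correspond to 0.816 CPM there, 0.622 at E9, 0.465 at E7 and 0.0477 at E10.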

Other observations

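Genes highest at E8 or E9 were looked for apart from the tests. In 24 genes the mean of E8 or E9 was 50 CPM or more and at least 4 times that of both E7 and E10, and the 6 largest are given here as values with no test. EMP1, an epithelial membrane protein, had 5.06 and 4.89 CPM at E7, 46.5 and 109 at E8, 40.6 at E9, and 0 and 10.9 at E10. PCDH8, a protocadherin, had 0 and 2.06 CPM at E7, 95.6 and 48.8 at E8, 25.7 at E9, and 5.89 and 6.81 at E10. In these 2 genes both E8 libraries and the E9 library lay above both ends. The other 4 were high in P4 alone: IL18R1 and IL1RL1, with the same 153 counts there (102 CPM) and 0.461 CPM in P5, NECTIN4 at 118 and LTF at 119. In P4 a single cell of 7 gave 96.1% of the IL18R1 counts and of the LTF counts and 55.6% of the NECTIN4 counts.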
